A study of Homo sapiens with 16 samples.

Results

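NRF2, encoded by NFE2L2, is the transcription factor that switches on antioxidant and detoxification genes, and KEAP1 is the adaptor that hands it to a ubiquitin ligase for destruction. These 2 genes and 8 antioxidant genes that NRF2 is known to control (GCLC, GCLM, GSR, TXN, TXNRD1, SRXN1, NQO1 and HMOX1) were chosen by name and looked up in a table of 18332 genes. Of the 10 genes, 9 were found there by symbol. SRXN1 was paired with no row and is named only. The genes and the pathway lists below were chosen with earlier results of these data known. Their counts are therefore set beside the shares of all genes as a description. In MDA-MB-231 cells, 6 of the 9 genes rose in high glucose and none fell, where 15.1% of all genes tested changed (5.71% rose). In MDA-MB-468 cells, 5 rose and 1 fell, where 47.6% of all genes changed (24.9% rose). NQO1 rose in both lines, HMOX1 rose in MDA-MB-231, and TXNRD1 rose in MDA-MB-231 and fell in MDA-MB-468.

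In cells without oxidative or electrophilic stress, KEAP1 keeps NRF2 protein low. Modified cysteines of KEAP1 let NRF2 accumulate, pair with a small MAF protein and bind the antioxidant response element (ARE), a short motif near its target genes. The targets feed glutathione synthesis and recycling, the thioredoxin system, quinone reduction and heme breakdown. NRF2 is regulated largely as a protein, which RNA sequencing does not measure.

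MDA-MB-231 and MDA-MB-468 are established lines grown from human breast cancers, and both lack the estrogen receptor. Each was kept for 48 h in medium with 5 mM glucose (called low glucose, the control) or with 25 mM (called high glucose, which models hyperglycemia). There were 4 replicates in each of 4 groups and 16 samples in all. Per the study's methods, all groups were grown without serum and conditioned in low-glucose medium before the switch, and the lines had been maintained in different media, so line and medium history cannot be told apart. The labels do not say that replicates were separate cultures, so the p-values measure the spread between these samples, which may be technical, and the labels name no sample with mannitol added to match osmolarity.

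Values are normalized reads, which are reads divided by a size factor of the library. Libraries held between 14094597 and 24425916 reads, and the 9 genes had between 271 reads (HMOX1) and 16025 reads (TXNRD1) in a library, far above the floor of 3 reads used here. The labels name no batch. MDA-MB-231 low-glucose replicate 4 stood somewhat apart, with a chi-square per gene of 3.83 to 5.20 against its group, where no other pair of replicates passed 4.23. The lines kept their known character: 3 of 4 mesenchymal markers were higher in MDA-MB-231 (VIM had a mean of 96228 normalized reads in low glucose against 21.5), CD44 was higher in MDA-MB-468, and all 6 epithelial markers were higher in MDA-MB-468 (KRT5 had a mean of 15150 against 1.13). ESR1 had group means between 1.31 and 57.9. Of the markers of other cell types, PTPRC (leukocytes) had group means between 3.12 and 12.5 and COL1A1 (fibroblasts) between 254 and 338. In MDA-MB-468, PTPRC fell from 8.77 to 3.12 and COL1A1 rose from 254 to 308 in high glucose, and their part in the results was not tested.

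RefSeq promoter windows, 250 bases before to 50 bases after a gene's start on GRCh38.p14, were at hand for 8 of the 10 genes (11 windows), with none for HMOX1 and GSR. They were searched on both strands for the ARE core TGACNNNGC, the AP-1 site TGANTCA, which can overlap an ARE core, and the GC box GGGCGG. An ARE core was in 4 of the 11 windows, namely 1 of GCLM, 1 of KEAP1 and 2 of TXNRD1, against 13.3% of all 35116 windows. The AP-1 letters were in 0 of the 11 windows (7.71% of all windows), and a GC box was in 9 of the 11 (45.0% of all). The matches are shown because NRF2 binds this motif and because these 3 genes moved differently in high glucose. Capitals mark the 9 bases of the ARE core, read 5′ to 3′ along the gene's own strand. A match on the other strand thus appears as its reverse complement. Positions count from the start site and are those of the first capital base, while coordinates span the whole stretch shown.
GCLM, from position -34, chr1:93909446-93909474, minus strand: tacgatttctGCTTAGTCAttgtcttcca
TXNRD1, from position -99, chr12:104215670-104215698, plus strand: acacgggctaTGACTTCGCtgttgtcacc
TXNRD1, another start, from position -102, chr12:104286920-104286948, plus strand: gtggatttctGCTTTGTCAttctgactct
KEAP1, from position -54, chr19:10502807-10502835, minus strand: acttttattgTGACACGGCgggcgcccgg
KEAP1, from position -31, chr19:10502784-10502812, minus strand: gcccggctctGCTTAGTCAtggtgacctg

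The GCLM and second KEAP1 matches share the core GCTTAGTCA, and the TXNRD1 window with the -99 match held another match, GCTCCGTCA, at position -8. A match in letters is a description, not a binding site. The windows of GCLC, NFE2L2, NQO1, SRXN1 and TXN held no ARE core, which says only that these letters are not within these bases.

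The glucose effect was tested within each line with limma on log2(value + 1), adjusted over all genes tested, and a gene is said to have risen or fallen where the adjusted p was under 0.05. In MDA-MB-231, 6 of the 9 genes rose, where 5.71% of the 14884 genes tested rose, 9.37% fell and 15.1% were called in all. In MDA-MB-468, 5 of the 9 rose and 1 fell, where 24.9% of 15757 genes rose and 22.7% fell, 47.6% in all. The median log2 fold change of the 9 genes was 0.17 in MDA-MB-231, where that of all genes tested was 0.0018. It was 0.13 for MDA-MB-468, beside 0.00011 for all genes. The 4 high-glucose values lay clear of the 4 low-glucose values for 6 of the 9 genes in each line, as they did for 18.7% of all genes tested in the former and 42.5% in the latter line. In these bulk samples, fewer cells that express a gene and less RNA per cell cannot be told apart. The split of calls over all genes in MDA-MB-231, 850 higher and 1395 lower, moved to 1027 higher and 1114 lower when the libraries were rescaled to equal quantiles.

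**Figure D1:**
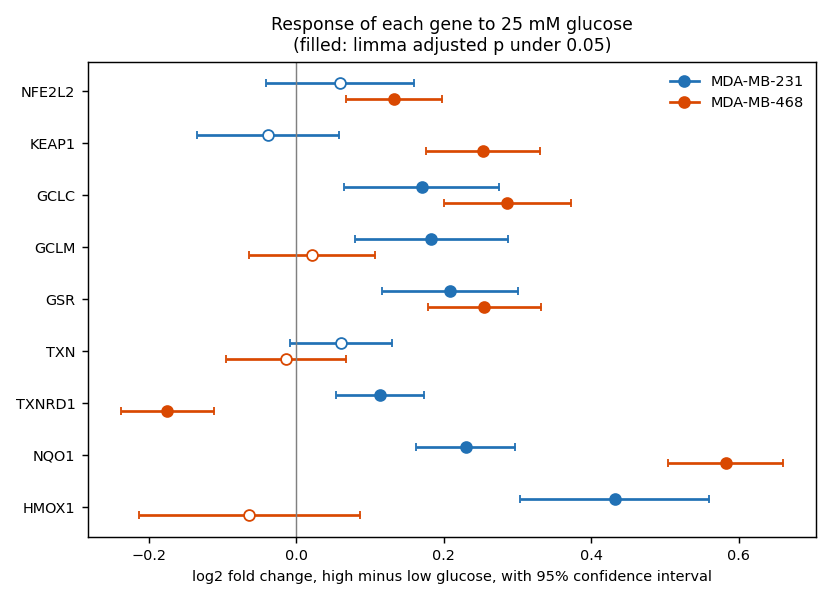
Log2 fold change of each gene in high against low glucose (points) with its 95% confidence interval (bars), for MDA-MB-231 (blue) and MDA-MB-468 (orange), with filled points where the limma adjusted p was under 0.05. NQO1 in MDA-MB-468 (0.58) and HMOX1 in MDA-MB-231 (0.43) lie farthest to the right, and TXNRD1 lies on opposite sides of 0 in the lines (0.11 and -0.17).

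NFE2L2, which encodes NRF2 itself (ENSG00000116044, chromosome 2, 178083395 to 178257484, minus strand, GRCh37), rose slightly in MDA-MB-468 and did not pass the test in MDA-MB-231. In MDA-MB-231, NFE2L2 had 1596, 1572, 1484 and 1646 normalized reads in low glucose and 1516, 1782, 1665 and 1606 in high glucose. The groups overlapped, with the lowest and the highest value both in high glucose. The log2 fold change of NFE2L2 was 0.06 (SE 0.05, limma adjusted p = 0.465). For MDA-MB-468, the low-glucose values were 2492, 2590.2, 2526 and 2505 and the high-glucose values 2838, 2804, 2747 and 2696. Here every high-glucose value lay above every low-glucose value, and the log2 fold change was 0.13 (SE 0.03, adjusted p = 0.00205), a 1.10-fold rise. The effects of the lines differed by 0.07 (95% interval -0.05 to 0.20, adjusted p = 0.386), so a difference between the lines was not shown. The annotated gene overlaps HNRNPA3 and AGPS on the other strand, and whether the counting used strand is unknown. On its own strand it overlaps a long noncoding RNA gene and a pseudogene, among others. Reads there cannot be assigned with certainty.

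KEAP1, the sensor that keeps NRF2 in check (ENSG00000079999, chromosome 19, 10596801 to 10614234, minus strand), rose in MDA-MB-468. Its MDA-MB-231 values were 2214, 2076, 2343 and 2047 normalized reads in low glucose and 2184, 2065, 1988 and 2208 in high glucose. These KEAP1 groups overlapped almost wholly (log2 fold change -0.04, SE 0.05, limma adjusted p = 0.642). The MDA-MB-468 values were 3404, 3257, 3532 and 3192 in low glucose and 3901, 3848, 4059 and 4141 in high glucose. All 4 high-glucose values were above all low-glucose values, and KEAP1 rose 1.19-fold (log2 fold change 0.25, SE 0.04, adjusted p = 2.59e-05). The effect was higher in MDA-MB-468 than in MDA-MB-231 by 0.29 on the log2 scale (SE 0.06, interaction adjusted p = 0.00236). In MDA-MB-468, the RNAs of NRF2 and of the adaptor that keeps it low were thus both higher in high glucose. A long noncoding RNA gene overlaps KEAP1 on its own strand, so some KEAP1 reads may belong to it.

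Per kilobase of transcript, the ratio of KEAP1 to NFE2L2 was 1.32 ± 0.137 (SD, n = 4) in low and 1.23 ± 0.131 in high glucose in MDA-MB-231. It was 1.26 ± 0.0656 in low and 1.37 ± 0.0769 in high glucose in MDA-MB-468. The group means lay within 1 SD of each other in MDA-MB-231 and less than 2 SD apart in MDA-MB-468, and no test was made of the ratios.

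GCLC and GCLM encode the catalytic and the modifier subunit of glutamate-cysteine ligase, the enzyme that sets the pace of glutathione synthesis. GCLC (ENSG00000001084, chromosome 6, 53362139 to 53481768, minus strand) rose in both lines. In MDA-MB-231, GCLC had 632, 698, 658 and 607 normalized reads in low glucose and 710.3, 747, 727 and 731 in high glucose. The groups did not overlap, although the highest low-glucose value came close to the lowest high-glucose value, and the rise was 1.12-fold (log2 fold change 0.17, SE 0.05, limma adjusted p = 0.0292). That call was lost when any of 5 single libraries was left out (MDA-MB-231 low-glucose replicate 1 or 4, or high-glucose replicate 2, 3 or 4), with adjusted p up to 0.0820. In MDA-MB-468, the GCLC values were 877, 941, 863 and 893 in low glucose and 1092, 1085, 1118 and 1063 in high glucose. These groups lay far apart, and the rise was 1.22-fold (log2 fold change 0.29, SE 0.04, adjusted p = 2.33e-05). The effects differed between lines by 0.12 (95% interval -0.01 to 0.24, adjusted p = 0.142), a difference that passed the test only without MDA-MB-231 low-glucose replicate 4 (adjusted p = 0.0454). GCLC-AS1 overlaps GCLC on the other strand, so GCLC reads may include some of its antisense partner. A long noncoding RNA gene overlaps GCLC on its own strand, and some reads may belong to it.

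GCLM (ENSG00000023909, chromosome 1, 94350755 to 94375012, minus strand) rose in MDA-MB-231 and showed no detectable change in MDA-MB-468. In MDA-MB-231, GCLM had 705, 732, 666 and 754 normalized reads in low glucose and 846, 799, 821 and 775 in high glucose. The high-glucose values were all higher, a 1.14-fold rise (log2 fold change 0.18, SE 0.05, limma adjusted p = 0.0179). It was no longer called without MDA-MB-231 low-glucose replicate 3 or high-glucose replicate 1 or 3 (adjusted p up to 0.0656). Nor was it called with same-numbered replicates fitted as a block (limma adjusted p = 0.0526). In MDA-MB-468, GCLM stood at 978, 1029, 993 and 1013 in low glucose and at 1067, 1003, 979.7 and 1023 in high glucose. These groups overlapped, and the log2 fold change was 0.02 (95% interval -0.06 to 0.11, adjusted p = 0.701). The line difference of the GCLM effect, -0.16 (SE 0.06, adjusted p = 0.0430), was near the threshold and was lost in 15 of its 26 alternative analyses. Among them were edgeR (adjusted p = 0.0518), DESeq2 (0.0719), limma with the replicate block (0.107) and fits without any of 11 single libraries.

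By the main test, both subunits of the ligase rose in MDA-MB-231, where each call was lost in some alternative analyses. The catalytic subunit rose in MDA-MB-468. The difference between the lines was not called for GCLC and was near the threshold for GCLM. The ratio of GCLC to GCLM per kilobase of transcript was 1.18 ± 0.103 in low and 1.16 ± 0.0617 in high glucose in MDA-MB-231. In MDA-MB-468 it was 1.15 ± 0.0258 in low and 1.38 ± 0.0684 in high glucose, and the 4 ratios in high glucose (1.32 to 1.47) lay above the 4 in low glucose (1.12 to 1.18). The ratios are given as a description, with no test.

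GSR encodes glutathione reductase, which returns oxidized glutathione to its reduced form at the cost of NADPH (ENSG00000104687, chromosome 8, 30535583 to 30585363, minus strand). GSR rose in both lines. In MDA-MB-231, GSR had 809.6, 829.8, 807 and 862 normalized reads in low glucose and 973, 977, 967 and 905 in high glucose. High-glucose replicate 4 lay below the other 3, yet above all low-glucose values, and the rise was 1.15-fold (log2 fold change 0.21, SE 0.04, limma adjusted p = 0.00339). GSR in MDA-MB-468 had 1621, 1595, 1550.0 and 1591 in low glucose and 1973, 1947, 1849.6 and 1819.9 in high glucose. The groups did not overlap, and the rise was 1.19-fold (log2 fold change 0.25, SE 0.04, adjusted p = 2.32e-05). The effects differed by 0.05 (95% interval -0.06 to 0.15, adjusted p = 0.517).

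**Figure D2:**
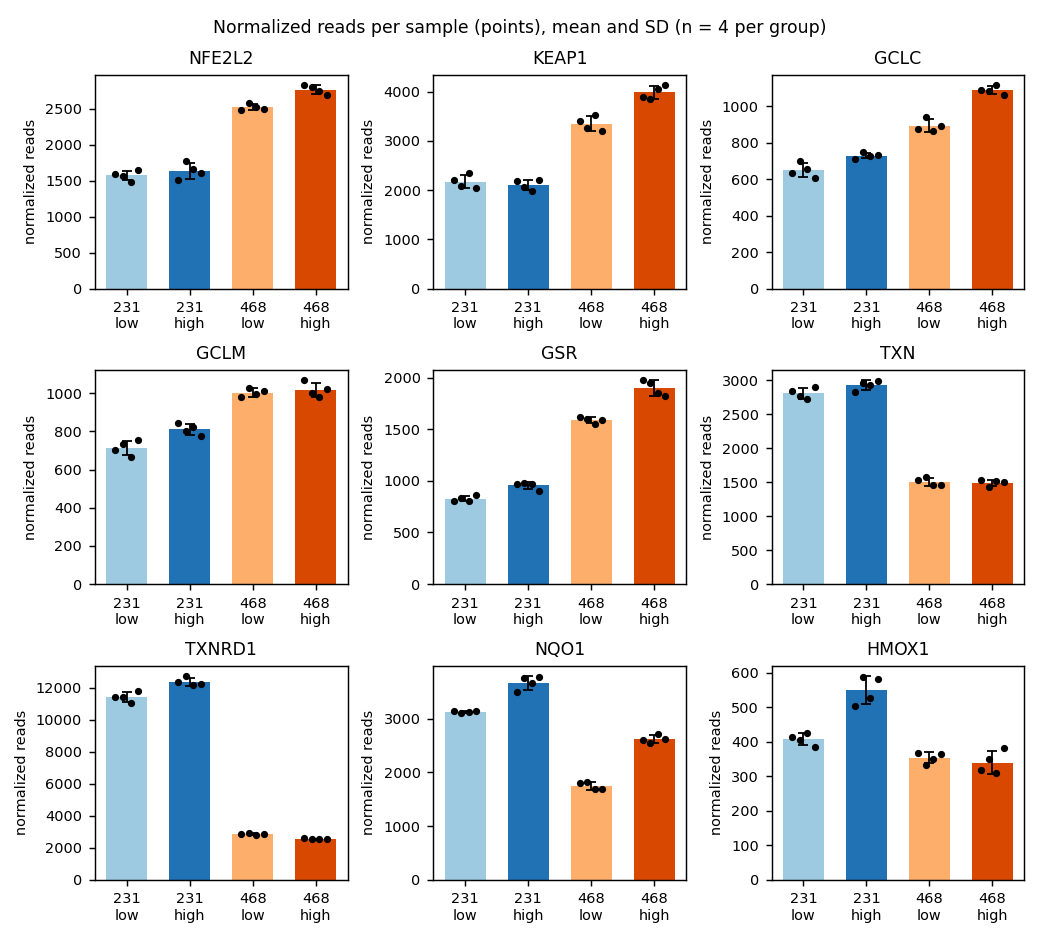
Normalized reads of each of the 9 genes in every sample (points) by line and glucose, with bars at the group mean and error bars of 1 SD (n = 4). TXNRD1, TXN and NQO1 are lower in MDA-MB-468 than in MDA-MB-231, and NFE2L2, KEAP1, GCLC, GCLM and GSR are higher.

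TXN encodes thioredoxin, a small protein that reduces disulfides, and TXNRD1 the cytosolic reductase that recharges it with electrons from NADPH. TXN (ENSG00000136810, chromosome 9, 113006090 to 113018787, minus strand) passed the test in neither line. In MDA-MB-231, TXN had 2842, 2764, 2729 and 2904 normalized reads in low glucose and 2832, 2961, 2936 and 2994 in high glucose. In MDA-MB-468, it had 1534, 1579, 1457 and 1462 in low glucose and 1526, 1431, 1514 and 1499.5 in high glucose. Both pairs of groups overlapped, with log2 fold changes of 0.06 in MDA-MB-231 (95% interval -0.01 to 0.13, limma adjusted p = 0.251) and -0.01 in MDA-MB-468 (-0.10 to 0.07, adjusted p = 0.784). At 737 bases, TXN has the shortest transcript of the 9 genes, and with a correction for transcript length its log2 fold change in MDA-MB-468 became -0.12 and passed the test (adjusted p = 0.0106).

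TXNRD1 (ENSG00000198431, chromosome 12, 104609557 to 104744085, plus strand) rose in MDA-MB-231 and fell in MDA-MB-468. In MDA-MB-231, TXNRD1 had 11450.4, 11464, 11068 and 11839 normalized reads in low glucose and 12376, 12761, 12194 and 12217 in high glucose. All high-glucose values were above all low-glucose values, a rise of 1.08-fold (log2 fold change 0.11, SE 0.03, limma adjusted p = 0.0116). TXNRD1 in MDA-MB-468 had 2872, 2913, 2803 and 2859 in low glucose and 2586, 2517, 2517 and 2520.3 in high glucose. Here all high-glucose values were below all low-glucose values, a drop of 1.13-fold (log2 fold change -0.17, SE 0.03, adjusted p = 1.28e-04). The effects differed by -0.29 (SE 0.03, interaction adjusted p = 4.49e-06), and the call was kept in all 26 alternative analyses. The gene overlaps EID3 and the pseudogene RPL18AP3 on its own strand, so some TXNRD1 reads may belong to them.

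TXNRD1 also had the widest gap between the lines among the 9 genes. It was 4.00-fold higher in MDA-MB-231 than in MDA-MB-468 in low glucose and 4.88-fold higher in high glucose. Per kilobase of transcript, the ratio of TXNRD1 to TXN was 0.778 ± 0.00967 in low and 0.807 ± 0.0257 in high glucose in MDA-MB-231, against 0.363 ± 0.00952 and 0.324 ± 0.00802 in MDA-MB-468. Reductase RNA was thus scarcer relative to thioredoxin RNA in MDA-MB-468, where TXN was lower too, and the ratios in high and low glucose did not overlap in that line.

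NQO1 encodes a quinone reductase that makes hydroquinones in a single step and is widely used as a readout of NRF2 activity (ENSG00000181019, chromosome 16, 69740899 to 69760571, minus strand). NQO1 rose in both lines, and more in MDA-MB-468. In MDA-MB-231, NQO1 had 3135, 3109, 3127 and 3147 normalized reads in low glucose and 3490.3, 3754, 3669.8 and 3768 in high glucose. The low-glucose values were tightly packed and the high-glucose values all above them, a rise of 1.17-fold (log2 fold change 0.23, SE 0.03, limma adjusted p = 7.78e-05). NQO1 in MDA-MB-468 had 1797, 1828, 1686 and 1689 in low glucose and 2594, 2547, 2721 and 2617 in high glucose. The groups were widely separated, and the rise was 49.7% (log2 fold change 0.58, SE 0.04, adjusted p = 2.60e-09). The rise was larger in MDA-MB-468 by 0.35 (SE 0.05, interaction adjusted p = 1.44e-05). It narrowed the gap between the lines, since NQO1 was 1.79-fold higher in MDA-MB-231 in low glucose and 1.40-fold higher in high glucose. A long noncoding RNA gene on the other strand and a small nucleolar RNA gene on its own strand overlap NQO1, so some reads may be theirs.

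HMOX1 encodes heme oxygenase 1, which splits heme into biliverdin, iron and carbon monoxide and is induced by many stresses (ENSG00000100292, chromosome 22, 35776354 to 35790207, plus strand). HMOX1 rose in MDA-MB-231, as NQO1 did, but unlike NQO1 it did not pass the test in MDA-MB-468. In MDA-MB-231, HMOX1 had 413, 404, 426 and 385 normalized reads in low glucose and 504, 588, 526 and 582 in high glucose. The groups did not overlap, and the rise of 1.35-fold (log2 fold change 0.43, SE 0.06, limma adjusted p = 8.84e-05) had the highest log2 fold change of the 9 genes in that line. In MDA-MB-468, HMOX1 had 369, 333, 351 and 364 in low glucose and 317, 349.6, 310.2 and 382 in high glucose. The high-glucose values spread around the low-glucose values, with a log2 fold change of -0.06 (95% interval -0.21 to 0.09, adjusted p = 0.486). The effects differed by -0.50 (SE 0.10, interaction adjusted p = 7.84e-04), and that call was kept in all 26 alternative analyses.

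Of the 9 glucose effects, 5 differed between the lines in the interaction test, 2 being higher in MDA-MB-468 (KEAP1 and NQO1) and 3 lower (GCLM, TXNRD1 and HMOX1), where 30.9% of 17115 genes were called, 17.0% higher and 13.9% lower. Each of these contrasts uses the same samples as the effects within the lines.

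The order of the 4 groups was set by the line for every one of the 9 genes. In low glucose, 5 genes were higher in MDA-MB-468 and 4 lower, and 9 of 9 were called, where 85.4% of 17115 genes were called (45.0% higher and 40.4% lower). In high glucose the same 5 were higher and the same 4 lower, 9 of 9 again, where 85.2% of genes were called (44.6% higher and 40.6% lower). No value of one line overlapped a value of the other at the same glucose level for any of the 9 genes, as was so for 80.5% of all genes in low glucose and 79.9% in high glucose. In low glucose, GSR was 1.92-fold, NFE2L2 1.61-fold, KEAP1 1.54-fold, GCLM 1.41-fold and GCLC 1.38-fold higher in MDA-MB-468 than in MDA-MB-231. TXN was 1.86-fold and HMOX1 1.15-fold lower (HMOX1 limma adjusted p = 0.0114). In high glucose the HMOX1 gap was 1.62-fold. Neighbouring groups in the order overlapped only within a line, for NFE2L2 and KEAP1 in MDA-MB-231, for GCLM and HMOX1 in MDA-MB-468 and for TXN in both.

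Group means in normalized reads (± SD, n = 4) show the same order. NFE2L2 had 1574 ± 67.8 in low and 1642 ± 111 in high glucose in MDA-MB-231, and 2528 ± 43.6 and 2771 ± 62.7 in MDA-MB-468. TXNRD1 had 11455 ± 315 and 12387 ± 262 in MDA-MB-231, and 2862 ± 45.3 and 2535 ± 34.0 in MDA-MB-468. NQO1 had 3129.5 ± 16.1 and 3671 ± 128 in MDA-MB-231, and 1749.8 ± 73.5 and 2619.7 ± 73.2 in MDA-MB-468. The TXNRD1 and NQO1 means of MDA-MB-468 stayed below those of MDA-MB-231 in either glucose level, while NFE2L2, the factor's own gene, was higher in MDA-MB-468 throughout.

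To compare genes with each other, normalized reads were divided by the length of the canonical transcript. In MDA-MB-231 in low glucose, TXN was highest with 3813 normalized reads per kilobase, followed by TXNRD1 (2968), NQO1 (1241), KEAP1 (846) and NFE2L2 (644). GSR (273), HMOX1 (262), GCLC (171) and GCLM (146) were lowest. The means of GSR and HMOX1 lay about 1 SD apart (8.32 and 11.2), so their order is not distinguished, as with GCLC and HMOX1 in MDA-MB-468 in low glucose. In MDA-MB-468 in low glucose the order was TXN (2046), KEAP1 (1305), NFE2L2 (1034), TXNRD1 (741), NQO1 (694), GSR (524), GCLC (236), HMOX1 (228) and GCLM (205). The difference from MDA-MB-231 was that KEAP1 and NFE2L2 stood above TXNRD1 and NQO1 in MDA-MB-468. In high glucose, NQO1 (1039) stood above TXNRD1 (657) in MDA-MB-468, and HMOX1 (354) stood above GSR (315) in MDA-MB-231.

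**Figure D3:**
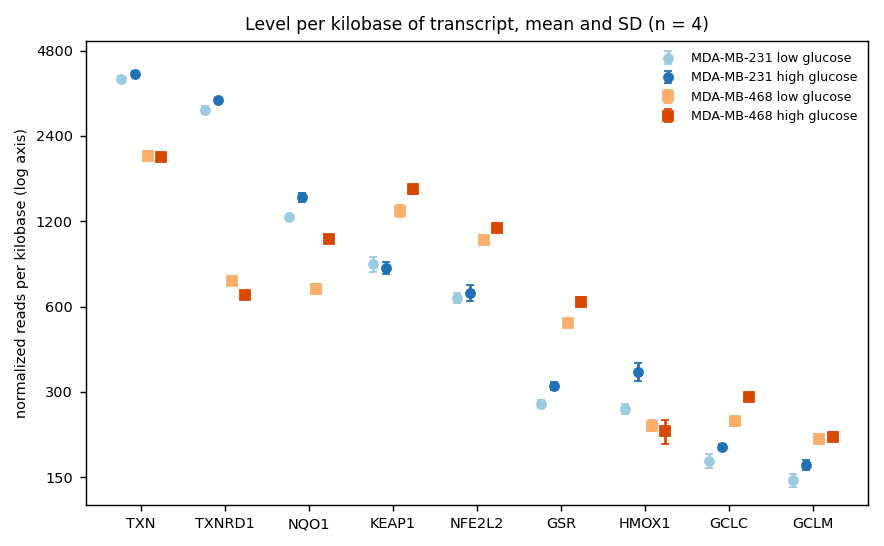
Normalized reads per kilobase of canonical transcript on a log axis, as mean and SD (n = 4), for each gene in MDA-MB-231 (blue circles) and MDA-MB-468 (orange squares) in low (light) and high (dark) glucose. TXN is highest in all 4 groups, and TXNRD1 shows the widest gap between the lines (2968 against 741 in low glucose).

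A further 84 genes of the surrounding pathways were listed by role, of which 83 were found (SOD2 was paired with no row). In MDA-MB-231, 21 of the 79 tested rose, 4 fell and 54 were not called, with a median log2 fold change of 0.08. In MDA-MB-468, 23 of the 78 tested rose, 25 fell and 30 were not called, with a median of -0.016. Rises outnumbered falls in MDA-MB-231 and were about as many as falls in MDA-MB-468. The tests called 31.6% of the listed genes in the former line and 61.5% in the latter, beside 15.1% and 47.6% of all genes.

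Of the 11 regulators and partners of NRF2, 1 rose and 2 fell in MDA-MB-231, and 1 rose and 7 fell in MDA-MB-468, with medians of -0.04 and -0.22. These calls were 27.3% and 72.7% of the list, where 15.1% and 47.6% of all genes were called. SQSTM1, which encodes p62, an autophagy receptor that binds KEAP1, rose in MDA-MB-231 from 18929 ± 726 to 23859 ± 297 normalized reads (log2 fold change 0.33, limma adjusted p = 4.88e-07), with -0.07 and adjusted p = 0.0762 in MDA-MB-468. MAFK, one of the small MAF partners, fell in MDA-MB-231 from 891 ± 44.1 to 798 ± 25.7 (-0.16, adjusted p = 0.0300), a call lost in 7 of 19 alternative analyses. In MDA-MB-468, RBX1, the RING subunit of the ligase that destroys NRF2, rose from 391 ± 10.6 to 522 ± 36.0 (0.41, adjusted p = 1.80e-05). NFE2L3, which encodes a factor related to NRF2, fell in that line from 692 ± 7.72 to 466 ± 34.9 (-0.57, adjusted p = 2.87e-07). The other 6 that fell there were BACH1, a repressor of HMOX1, the small MAF genes MAFF, MAFG and MAFK, CUL3, the scaffold of the same ligase, and GSK3B, a kinase that marks NRF2 for destruction, so that members with opposite known actions on NRF2 fell together.

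In the list of glutathione supply and use, 7 of 23 genes rose and none fell in MDA-MB-231, and 8 of 21 rose and 6 fell in MDA-MB-468. That is 30.4% and 66.7% called, beside 15.1% and 47.6% of all genes. SLC7A11, the cystine carrier that supplies cysteine for glutathione, rose in MDA-MB-231 from 3754 ± 163 to 4724 ± 115 normalized reads (log2 fold change 0.33, limma adjusted p = 3.24e-06). It fell in MDA-MB-468 from 931 ± 29.3 to 575 ± 41.1 (-0.70, adjusted p = 2.01e-08), and the effects differed by -1.03 (adjusted p = 6.22e-09). Its partner SLC3A2 rose in MDA-MB-231 (0.28) and fell in MDA-MB-468 (-0.16). CHAC1, an enzyme that degrades glutathione, likewise rose in MDA-MB-231 (0.54, adjusted p = 3.18e-07) and fell in MDA-MB-468 (-0.47, adjusted p = 4.71e-05). GGT1, which breaks down glutathione outside the cell, rose in MDA-MB-468 from 153 ± 6.73 to 301.5 ± 11.5 (0.98, adjusted p = 1.31e-08), although near-identical relatives of GGT1 make its read assignment uncertain. GGT1 rose in MDA-MB-231 too (0.22, adjusted p = 0.0149, or 0.0586 without high-glucose replicate 1), so that cystine carrier subunits and enzymes of glutathione breakdown all rose there together with GCLM.

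In the thioredoxin and peroxiredoxin list, 2 of 12 rose and 1 fell in MDA-MB-231, and 3 of 12 rose and 3 fell in MDA-MB-468. The 25% called in MDA-MB-231 stood beside 15.1% of all genes, and the 50% in MDA-MB-468 was near the 47.6% of all genes. TXNRD2, the mitochondrial thioredoxin reductase, rose in MDA-MB-468 from 238 ± 25.2 to 453 ± 55.6 normalized reads (log2 fold change 0.93, limma adjusted p = 3.51e-07), opposite to its cytosolic relative TXNRD1, and had 0.01 in MDA-MB-231 (adjusted p = 0.960). Of the 3 sestrins, which are stress-induced partners of the peroxiredoxins, SESN1 was called in neither line (-0.07, adjusted p = 0.713, and 0.12, adjusted p = 0.260). SESN2 rose in MDA-MB-231 (0.29, adjusted p = 3.55e-04) and fell in MDA-MB-468 (-0.36, adjusted p = 5.88e-05). SESN3 fell in MDA-MB-231 (-0.27, adjusted p = 0.00465) and rose in MDA-MB-468 (0.27, adjusted p = 1.44e-04).

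Of 8 genes of NADPH supply, 2 rose and 1 fell in MDA-MB-231, and 2 rose and 2 fell in MDA-MB-468. Called genes made up 37.5% of the list in MDA-MB-231 (15.1% of all genes) and 50% in MDA-MB-468, near the 47.6% of all genes. ME1, the cytosolic malic enzyme, rose in MDA-MB-231 from 611 ± 13.6 to 715 ± 6.48 normalized reads (log2 fold change 0.23, limma adjusted p = 0.00163). TKT, transketolase of the pentose phosphate pathway, rose in MDA-MB-468 (0.26, adjusted p = 1.48e-05). IDH2, the mitochondrial NADP-dependent isocitrate dehydrogenase, fell in both lines, by 0.36 on the log2 scale in MDA-MB-231 (adjusted p = 5.15e-04) and by 0.12 in MDA-MB-468 (adjusted p = 0.00223).

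Among the genes of quinone and carbonyl reduction and detoxification, 6 of 15 rose and none fell in MDA-MB-231, and 6 of 17 rose and 6 fell in MDA-MB-468. Calls thus covered 40% and 70.6% of those tested, beside 15.1% and 47.6% of all genes. AKR1C3, an aldo-keto reductase, rose in MDA-MB-231 from 220.4 ± 28.1 to 293 ± 22.1 normalized reads (log2 fold change 0.41, limma adjusted p = 0.00366) and also in MDA-MB-468 (0.56, adjusted p = 9.87e-05). AKR1C2 rose in MDA-MB-468 from 4643 ± 108 to 7473 ± 172 (0.69, adjusted p = 3.47e-11), a call lost when all 16 samples shared 1 model (adjusted p = 0.0986). It is nearly identical to AKR1C1, so reads may be split between them, and in MDA-MB-231 it was near the floor with means of 4.77 and 5.86. ALDH3A1, an aldehyde dehydrogenase, fell in MDA-MB-468 from 188 ± 9.11 to 99.4 ± 17.6 (-0.93, adjusted p = 6.16e-06).

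Of 7 genes of heme and iron handling, 3 rose and none fell in MDA-MB-231, and 2 rose and 1 fell in MDA-MB-468. BLVRB, a biliverdin reductase that acts on the product of heme oxygenase, rose in MDA-MB-231 from 610.1 ± 56.9 to 750.2 ± 61.1 normalized reads, with groups that overlapped (log2 fold change 0.30, limma adjusted p = 0.00697). The other 2 that rose there were FTL and FTH1, the ferritin chains that store iron. BLVRA, the other biliverdin reductase, rose in MDA-MB-468 (0.26, adjusted p = 0.00709), and ABCB6, a porphyrin transporter, fell (-0.42, adjusted p = 6.88e-06). Of the superoxide and peroxide enzymes, none of the 3 tested passed in MDA-MB-231 (adjusted p of at least 0.807), and 1 of 2 passed in MDA-MB-468, where CAT, catalase, rose from 2109 ± 47.8 to 3114 ± 102 (0.56, adjusted p = 1.32e-09). This 1 call was 50% of the 2 tested in MDA-MB-468, beside 47.6% of all genes, and the 0 of 3 in MDA-MB-231 stood beside 15.1%.

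**Figure D4:**
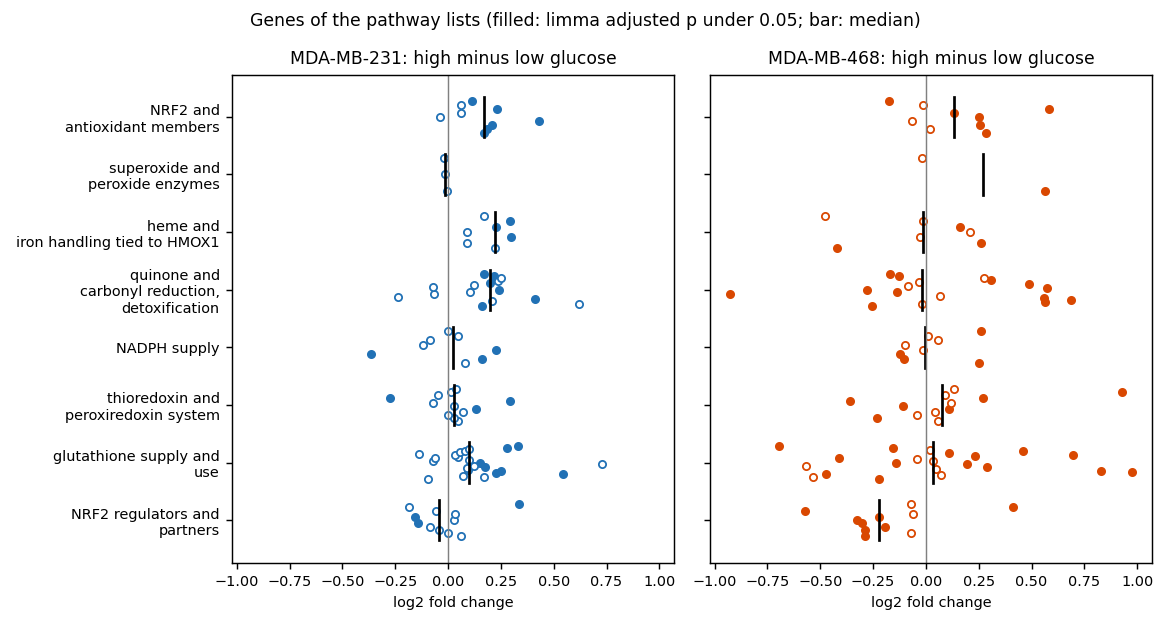
Log2 fold change in high against low glucose of every tested gene of the 9 genes and the 7 pathway lists, in MDA-MB-231 (left) and MDA-MB-468 (right), with filled points where the limma adjusted p was under 0.05 and a bar at each list's median. The regulators of NRF2 lie mostly left of 0 in MDA-MB-468 (median -0.22), and the quinone and heme lists lie mostly right of 0 in MDA-MB-231 (medians 0.20 and 0.22).

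The genes whose pattern over the 16 samples was most like that of 3 of the genes were found by Pearson's r of log2(value + 1) after each line's mean was taken off, among 12810 genes. The points share libraries and the 4 groups, and the values are a description. For NQO1 they were GORASP2 (r = 0.977), H2BC12 (0.975) and REEP5 (0.974), and among the antioxidant genes NQO1 was most like GCLC (0.925) and GSR (0.877). For HMOX1 they were VAT1 (0.893), SQSTM1 (0.892) and VEGFB (0.885), and its r with NQO1 was 0.199. For NFE2L2 they were PDIA3P1 (0.930), a pseudogene that may share reads with PDIA3, UXT (0.919) and KCTD14 (0.912), and its r was 0.735 with GSR, 0.728 with NQO1 and -0.196 with TXNRD1. The 3 most similar genes of HMOX1 and of NQO1 were thus different ones. Since only the line means were taken off, r also reflects the glucose effects given above.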

How the data were processed

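RNA from 16 samples of MDA-MB-231 and MDA-MB-468 was sequenced. The study's methods describe trimming with Trimmomatic and alignment to hg19 with TopHat and an Ensembl annotation in their account of the tumors. They give no separate alignment for the cell lines, and the submitters' processing notes list hg38 and edgeR. The counting program and its use of strand are not given in the sources used here. The authors deposited a normalized signal, in which the reads of a gene were divided by a size factor of its library. All values (100%) were whole multiples of the step of their library (tolerance 1e-04), so whole reads were recovered. Libraries of 14094597 to 24425916 reads make 3 reads equal to 0.123 to 0.213 CPM, and this floor covers counting error only. Symbols were found for 16633 of 18332 Ensembl IDs and lengths for 17647, from GENCODE lifted to GRCh37, which also gave the gene coordinates. Promoter sequences and their coordinates are from RefSeq on GRCh38.p14.

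Genes that reached 0.5 CPM in at least 2 samples were tested with limma 3.58.1 (R 4.3.3; lmFit, eBayes with trend, two-sided) on log2(value + 1), a scale that understates the change of low genes, adjusted by Benjamini-Hochberg, and called where the adjusted p was under 0.05. Glucose effects used the 8 samples of a line, and the interaction and line differences used all 16 samples and 4 group means. On recovered reads, edgeR 4.0.16 called 2244 genes in MDA-MB-231, 7484 in MDA-MB-468 and 5258 in the interaction, and DESeq2 1.42.0 called 2085, 6632 and 5054, against 2245, 7495 and 5288 with limma. The other alternatives were pseudocounts of 0.25 and 5, other filters, quantile rescaling, a length correction, a replicate block, all samples in 1 model, and each replicate left out. The code was tested on simulated data. Pathway genes named are, per list and line, the called gene with the highest rise and the one with the steepest fall among genes whose higher group had a mean of 5 CPM or more, and others are named after their values were seen. The genes, lists and tests were chosen with earlier results of these data known.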

Additional observations from a re-analysis of the deposited data

Results flagged for a closer look

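In 2 of the 36 groups of 4 values checked over the 9 genes, a single sample stood far from the other 3, measured as its gap to the nearest sample over the group's whole range (above Dixon's 95% critical value for 4 samples, which chance passes in about 1 of 20 groups). TXNRD1 in MDA-MB-468 high glucose had a ratio of 0.950, with replicate 1 at 2586 above values of 2517 to 2520.3. GSR in MDA-MB-231 high glucose had a ratio of 0.859, with replicate 4 at 905 below values of 967 to 977. Both samples stayed on their own side of the low-glucose values.

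The glucose effect differed between the lines, by the interaction test with limma, for 5 of the 9 genes, where 30.9% of all genes were called. The difference, MDA-MB-468 minus MDA-MB-231 on the log2 scale, was 0.35 for NQO1, 0.29 for KEAP1, -0.16 for GCLM, -0.29 for TXNRD1 and -0.50 for HMOX1. The GCLM call was lost in 15 of its 26 alternative analyses.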

How the results depend on the processing

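No direction that passed the test in the 9 genes was reversed in any alternative. Over genes, contrasts and alternatives, 1015 values kept their side of the threshold, 25 lost it and 4 gained it, all for GCLC, GCLM or TXN. The count of the 9 genes called ranged from 4 to 6 in MDA-MB-231, 6 to 7 in MDA-MB-468 and 4 to 6 in the interaction, and was 9 for both line differences. Leaving out 1 library gave 1629 to 2389 called genes in MDA-MB-231, 6759 to 7398 in MDA-MB-468 and 4913 to 5467 in the interaction. No label ties replicate numbers to a batch, and same-numbered samples did not deviate together over all genes tested. The mean correlation was -0.03 for MDA-MB-231 and 0.03 for MDA-MB-468, which cannot exclude a shared effect on some genes. A fit with a replicate block called 1624 genes in MDA-MB-231, 7383 in MDA-MB-468, 4774 in the interaction, and 14622 and 14577 in the line differences. In it GCLC (adjusted p = 0.0525) and GCLM (0.0526) in MDA-MB-231 and the GCLM interaction (0.107) missed the threshold. With the length correction, TXN passed in MDA-MB-468 (0.0106) and in the interaction (0.0402). With the length correction and the block together, BLVRA in MDA-MB-468 missed the threshold (0.0669). Causes were not tested.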
